A study of Rattus norvegicus and Mus musculus with 18 samples.

Results

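The matrix metalloproteinases (Mmp genes), the ADAMTS proteases (Adamts genes) and the tissue inhibitors of metalloproteinases (Timp genes) were followed in healing mouse skin. They were taken from the mouse expression table by symbol, as protein-coding genes named Mmp or Adamts with a number, and Timp1 to Timp4. This gave 45 of the 49548 genes listed: 22 Mmp, 19 Adamts and 4 Timp genes. Mmp1a also carries such a name but is annotated as a polymorphic pseudogene and was left out, at 0 to 0.76 TPM.

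Of the 18 libraries in the series, the 6 from mouse were used: 3 of wound dermis and 3 of wound epidermis. The tissue came from adult mice, 1 day after the scab had detached, which the study gives as the time when hair follicles regenerate in mice. Strain, sex and genotype are not named in the labels, and they do not tell whether each library stands for its own animal. P-values therefore reflect variation among these libraries, which may be technical. Whole tissue was homogenised, so each library mixes all cell types of its layer, and fewer cells of a type cannot be told apart from less RNA per cell. Values are TPM, a gene's length-corrected share of the transcripts in a library, which allows levels of different genes to be compared. The read depth behind each library is unknown.

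Metalloproteinases of these families hold a zinc ion in their active site and cut extracellular matrix and cell surface proteins. Most are made as inactive proenzymes, and TIMP proteins block them by inserting their amino end into the active site. In wounds these enzymes clear damaged matrix, free keratinocytes to migrate and remodel new collagen.

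The catalytic site is shown first because it is what the proteases share whatever their level. The bases below code for the zinc-binding stretch of the proteases whose values matter most here, with the 3 histidine codons that hold the zinc in capitals.
Mmp14: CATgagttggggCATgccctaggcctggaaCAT
Mmp2: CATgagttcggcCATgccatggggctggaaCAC
Mmp23: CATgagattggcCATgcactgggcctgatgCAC
Mmp11: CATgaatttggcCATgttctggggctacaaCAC
Mmp27: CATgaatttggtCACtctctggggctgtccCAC
Mmp3: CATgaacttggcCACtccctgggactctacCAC
Mmp10: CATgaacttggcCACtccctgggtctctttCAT
Adamts2: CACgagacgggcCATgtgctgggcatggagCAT
Adamts1: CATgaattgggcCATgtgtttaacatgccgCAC
The stretch was found in all 41 proteases. Mmp3 and Mmp10, neighbours on chromosome 9 of which the first was lower in epidermis and the second was not called, had 29 of these 33 bases in common. Pairs on different chromosomes had as many or more, such as Mmp14 and Mmp16 with 29 and Adamts2 and Adamts14 with 30. In mm10 the Mmp3 stretch lies in exon 5 at chr9:7449775-7449807 and that of Mmp10 in exon 5 at chr9:7504858-7504890, both on the plus strand. In Mmp14 it is in exon 5 (chr14:54437627-54437659, plus strand), in Mmp2 in exon 8 (chr8:92839279-92839311, plus strand) and in Mmp27 in exon 4 (chr9:7577326-7577358, plus strand). In Mmp23 and Mmp11 it is in exon 5 (chr4:155651528-155651560 and chr10:75926931-75926963, minus strand). In Adamts2 it is split over exons 7 and 8 (chr11:50775403-50776134, plus strand) and in Adamts1 over exons 3 and 4 (chr16:85799191-85799545, minus strand).

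The inhibitors carry at their amino end the cysteine-rich stretch that enters that site. It is shown for the 3 Timp genes that were detected, with cysteine codons at its start and end in capitals.
Timp1: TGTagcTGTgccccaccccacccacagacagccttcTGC
Timp2: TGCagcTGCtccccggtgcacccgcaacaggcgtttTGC
Timp3: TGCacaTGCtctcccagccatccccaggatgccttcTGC
It lies in exon 2 of Timp1 (chrX:20871111-20871149, plus strand), exon 1 of Timp2 (chr11:118354974-118355012, minus strand) and exon 1 of Timp3 (chr10:86300923-86300961, plus strand).

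The comparison asked how these proteases and inhibitors are divided between the new epidermis and the dermis beneath it. Of the 45 genes, 29 were lower in wound epidermis, none was higher, Mmp10 was not called and 15 were too low to be tested. The test was limma on log2(TPM + 1), two-sided, with Benjamini-Hochberg adjustment over all 15982 genes tested and a threshold of 0.05. Over all genes tested, 56.3% were called by the same rule, 39.3% as lower and 17.0% as higher in epidermis. In 29 of the 30 tested genes every epidermis library lay below every dermis library, against 45.3% of all genes tested. At an unadjusted p under 0.05 the number of higher genes among the 45 was also 0. A fall of 1 or more in log2 units was seen in 28 of the 29 lower genes. Over all genes tested it was seen in 4901 of the 6275 lower genes. Among genes at 1 TPM in all 3 epidermis libraries, it was seen in 7 of 7 lower genes, against 2331 of 3431 over all genes.

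A gene was tested if 3 or more libraries reached 1 TPM, and 30 of the 45 passed this filter. Of these, 15 were below 1 TPM in all 3 epidermis libraries and passed through dermis alone. All 15 were called lower without overlap between the groups, but 98.4% of all genes that passed in that way were called lower and none of them overlapped, so these 15 give no support to the counts above. Timp3, Adamts10, Adamts14, Adamts17, Mmp11, Mmp13 and Mmp15 reached 1 TPM in 1 or 2 epidermis libraries and so also needed dermis to pass. All of them were called lower. The share called lower over all genes of that kind was not computed, so their calls give no support either. A further 8 genes reached 1 TPM in all 3 epidermis libraries, and 7 of them were lower, against 28.1% of all genes at that level. In 7 of the 8 the epidermis libraries also lay below all dermis libraries, against 35.4% of all genes at that level. These were Mmp14, Mmp2, Mmp3, Mmp9, Mmp10, Mmp12, Timp2 and Adamts1. The median log2 fold change was -2.97 over these 8 genes and -0.16 over all genes at that level, and -2.97 over the 30 tested genes and -0.42 over all genes tested.

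**Figure D1:**
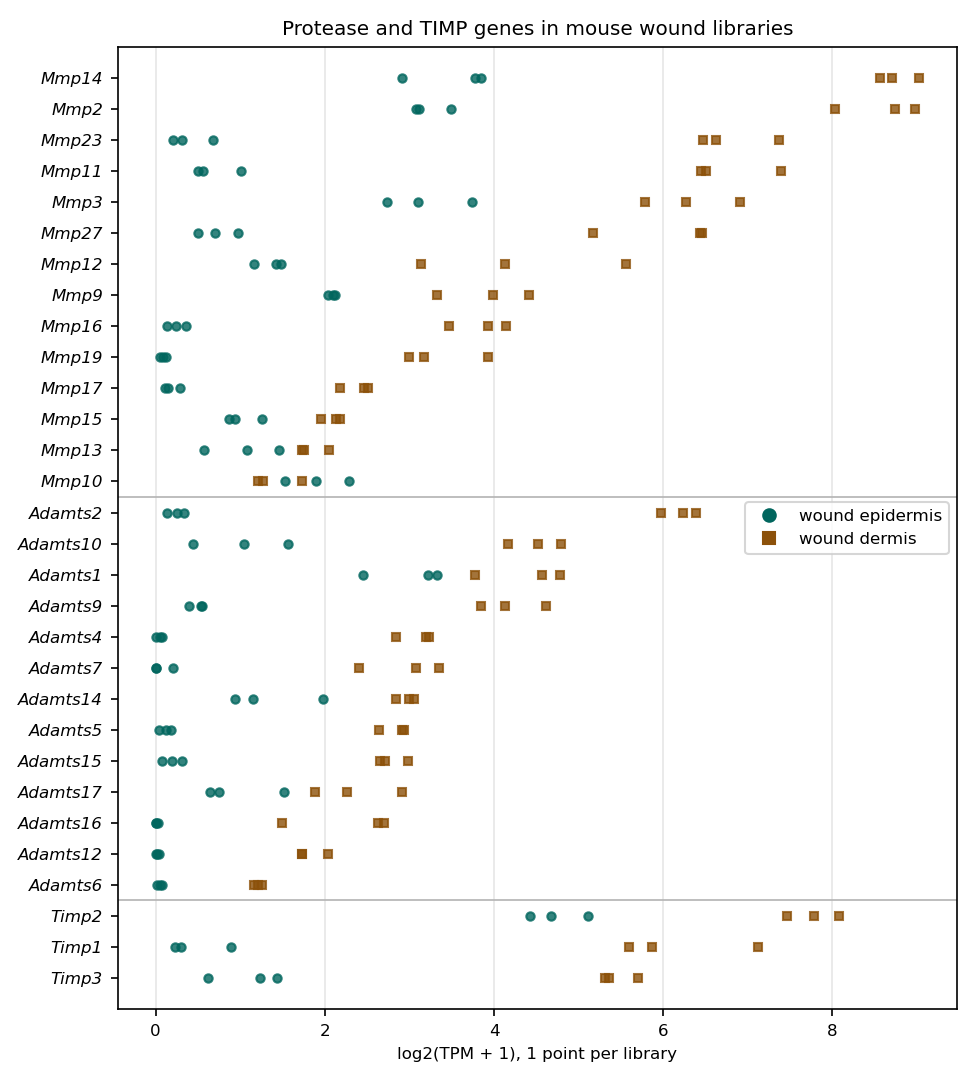
Each row is 1 of the 30 tested genes and each point 1 library, on the log2(TPM + 1) scale; squares are wound dermis and circles wound epidermis. The groups overlap in Mmp10 alone, and in the other 29 genes all epidermis points lie left of all dermis points.

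The inhibitors are described before the enzymes. Timp2, which blocks most metalloproteinases and also helps Mmp14 to activate Mmp2, stood at 218.5, 174.8 and 268 TPM in wound dermis replicates 1, 2 and 3 and at 20.4, 33.5 and 24.6 TPM in wound epidermis replicates 1, 2 and 3. It fell by 3.03 on the log2 scale in epidermis (SE 0.26, limma adjusted p = 0.000105). Every epidermis library lay below every dermis library, yet at a mean of 26.2 ± 6.69 TPM (SD, n = 3) Timp2 was the most abundant of the 45 genes in epidermis. Its lowest epidermis library was above the highest of Mmp14, the next in order. Timp1, an inhibitor induced by growth factors and inflammation, stood at 57.2, 47.5 and 138 TPM in dermis and at 0.23, 0.17 and 0.85 TPM in epidermis. The groups lay far apart, and dermis replicate 3 held more than the other dermis libraries. The log2 fold change of Timp1 was -5.72 (SE 0.42, limma adjusted p = 5.37e-05). Timp3, the inhibitor that is bound to the matrix, stood at 40.1, 38.7 and 51.1 TPM in dermis and at 1.70, 0.53 and 1.35 TPM in epidermis. The dermis libraries of Timp3 were close together and all above epidermis (log2 fold change -4.37, SE 0.27, limma adjusted p = 2.61e-05). Of the 43-base stretches of Timp3, 43 bases being the shorter read length of the study, 21.6% also occur in other genes, including Syn3 on the opposite strand, which did not exceed 0.49 TPM. Timp4 did not exceed 0.02 TPM in any library.

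Gelatinases cut denatured collagen and basement membrane collagen. Mmp2, the gelatinase of fibroblasts, stood at 427, 259.6 and 501 TPM in dermis and at 7.41, 7.62 and 10.3 TPM in epidermis. The log2 fold change was -5.35 (SE 0.29, limma adjusted p = 1.73e-05), with epidermis at 2.13% of the dermis mean. Mmp9, the gelatinase made by keratinocytes and leukocytes in wounds, stood at 20.3, 8.99 and 14.9 TPM in dermis and at 3.33, 3.11 and 3.26 TPM in epidermis. The epidermis libraries of Mmp9 were nearly equal, all below dermis, and at 21.9% of its mean, a share above that of Mmp2. The log2 fold change of Mmp9 was -1.83 (SE 0.30, limma adjusted p = 0.00199).

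Membrane-type enzymes are held at the cell surface. Mmp14, which cuts fibrillar collagen and activates Mmp2, stood at 416, 376 and 519 TPM in dermis and at 12.7, 6.5 and 13.4 TPM in epidermis. With Mmp2 it was the most abundant of the 45 genes in dermis, at 437 ± 73.6 TPM against 396 ± 124 TPM (SD, n = 3), and these levels overlapped. Mmp14 fell by 5.25 on the log2 scale in epidermis (SE 0.30, limma adjusted p = 2.00e-05). Mmp16, a related collagen- and Mmp2-processing enzyme, stood at 10.1, 16.6 and 14.2 TPM in dermis and at 0.18, 0.10 and 0.28 TPM in epidermis (log2 fold change -3.60, SE 0.23, limma adjusted p = 2.97e-05). Mmp17, which is anchored by a lipid, ranged from 3.52 to 4.68 TPM in dermis and from 0.08 to 0.22 TPM in epidermis. Mmp15 ranged from 2.89 to 3.52 TPM in dermis and from 0.82 to 1.39 TPM in epidermis, a fall of 1.07. Both were called lower, with no overlap between the groups. Mmp24 and Mmp25, at no more than 0.13 and 1.11 TPM, were not tested.

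Stromelysins differed among themselves. Mmp3, a stromelysin of broad activity that also activates other proenzymes, stood at 119, 54.0 and 76.0 TPM in dermis and at 7.56, 5.63 and 12.4 TPM in epidermis. The groups did not overlap, and the log2 fold change was -3.13 (SE 0.37, limma adjusted p = 0.000465). Mmp11, an enzyme of stromal cells that is activated inside the cell by furin-type convertases, stood at 167, 86.1 and 89.9 TPM in dermis and at 0.41, 0.47 and 1.02 TPM in epidermis. Its log2 fold change was -6.09 (SE 0.31, limma adjusted p = 1.50e-05). Mmp10, the stromelysin of migrating keratinocytes at the wound edge, stood at 1.40, 2.32 and 1.32 TPM in dermis and at 3.86, 2.72 and 1.88 TPM in epidermis. It was the only tested gene with a higher mean in epidermis, 2.82 ± 0.99 against 1.68 ± 0.56 TPM (SD, n = 3), but epidermis replicate 3 lay below dermis replicate 2. The log2 fold change of Mmp10 was 0.50 (SE 0.26) and did not pass (limma adjusted p = 0.145). Relative to the median of all genes it was 0.92, and after median-of-ratios scaling (0.82, adjusted p = 0.0405) or quantile normalization (1.27, adjusted p = 0.00644) it was called higher. Without wound epidermis replicate 1 it was 0.31.

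Mmp3 exceeded Mmp10 in every library, 23.3 to 84.7 times in dermis and 1.96 to 6.58 times in epidermis. The transcripts of these neighbours share sequence: 9.58% of the different 43-base stretches of Mmp10 also occur in Mmp3. Reads of that kind were divided between the genes by the authors' software, so the low Mmp10 values are uncertain, and what part the division has in them was not tested.

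Among the remaining Mmp genes, Mmp23, an atypical membrane-bound enzyme without a hemopexin domain, stood at 97.7, 87.4 and 164 TPM in dermis and at 0.60, 0.15 and 0.24 TPM in epidermis. The change of -6.42 on the log2 scale (SE 0.29, limma adjusted p = 1.15e-05) was the lowest of the 30 tested genes. That order depends on the pseudocount. By mean TPM, epidermis held 0.28% of the dermis level of Mmp23, against 0.16% for Adamts16 and 0.25% for Adamts2. Mmp27, a less studied member of the stromelysin-like branch, stood at 85.2, 87.0 and 35.1 TPM in dermis and at 0.63, 0.41 and 0.97 TPM in epidermis. Dermis replicate 3 held less Mmp27 than the other dermis libraries, the reverse of Timp1 and Mmp12, but the groups stayed apart (log2 fold change -5.29, SE 0.38, limma adjusted p = 4.50e-05). Mmp12, the elastase of macrophages, stood at 16.4, 7.77 and 46.1 TPM in dermis and at 1.69, 1.24 and 1.79 TPM in epidermis. Its dermis values spread the widest of the tested genes relative to their mean, and the change of -2.91 on the log2 scale had an SE of 0.56 (limma adjusted p = 0.00400). Mmp19, found in skin in several cell types, stood at 8.01, 6.99 and 14.2 TPM in dermis and at 0.06, 0.09 and 0.04 TPM in epidermis (log2 fold change -3.28, SE 0.27, limma adjusted p = 9.04e-05). Of its 43-base stretches 25.2% also occur in other genes, including Tmem198b on the opposite strand, which stood at 6.10 to 10.8 TPM in dermis and 1.2 to 1.29 TPM in epidermis. Without strand in the data, reads from the shared part cannot be assigned to one or the other.

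Collagenases, which open the collagen triple helix, were low. Mmp13, the main collagenase of rodents, ranged from 2.32 to 3.15 TPM in dermis and from 0.48 to 1.75 TPM in epidermis. It fell by 0.81 on the log2 scale (SE 0.26, limma adjusted p = 0.0335), but this is -0.39 relative to the median of all genes, and under quantile normalization it stood at -0.01 (adjusted p = 0.983). Mmp13 also missed the threshold with median-of-ratios scaling (-0.50, adjusted p = 0.212), without the filter (adjusted p = 0.0854) and with a pseudocount of 0.1 (adjusted p = 0.0531). Leaving out any library but wound epidermis replicate 2 ended its call as well, at adjusted p-values of 0.0697 to 0.119. Mmp8, the collagenase of neutrophils, stood at 4.95, 0.11 and 2.88 TPM in dermis and did not exceed 0.03 TPM in epidermis. It reached 1 TPM in fewer than 3 libraries and was not tested. Mmp1b did not exceed 0.17 TPM.

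A group of 9 Mmp genes lies in one cluster of 427 kb on chromosome 9 (chr9:7272514-7699585, mm10). Mmp13, Mmp12, Mmp3 and Mmp27 were lower in epidermis, Mmp10 was not called, and Mmp1b, Mmp8, Mmp20 and Mmp7 were not tested. Mmp3 and Mmp27, high in dermis, are therefore separated by Mmp10, which was low in both layers, and by Mmp8. Mmp12 and Mmp1b overlap on opposite strands, and 23.0% of the 43-base stretches of Mmp1b occur in Mmp12 or Mmp1a.

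**Figure D2:**
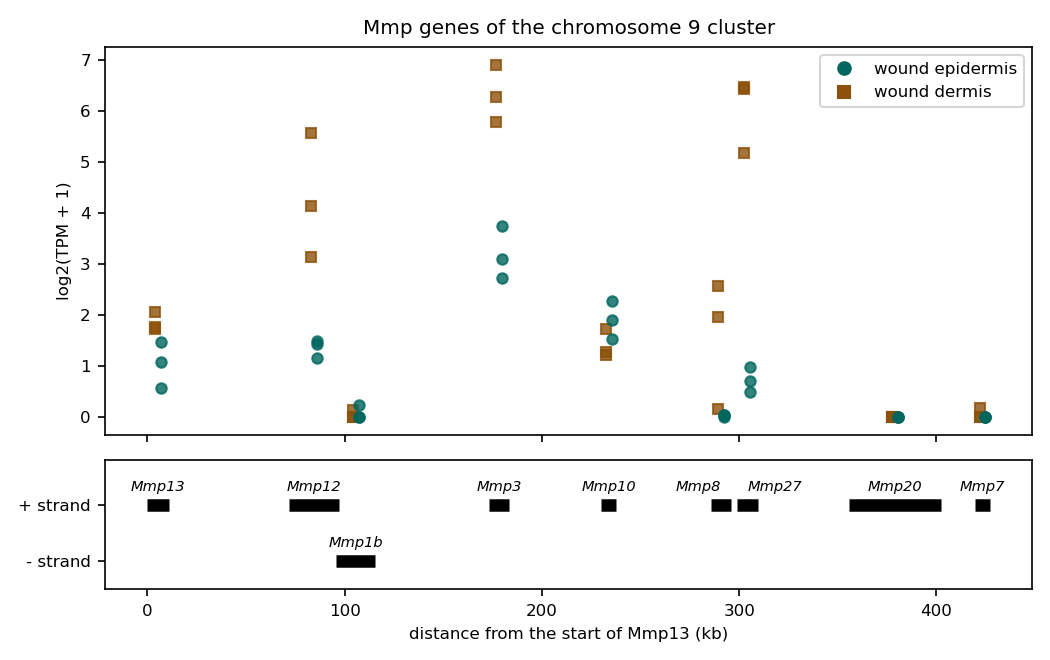
The upper panel shows log2(TPM + 1) of each library for the 9 cluster genes, placed by distance in kb from the start of Mmp13; the lower panel shows the genes on their strands. Levels change sharply between neighbours, as from Mmp3 to Mmp10, where epidermis circles reach the dermis squares.

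ADAMTS proteases that mature procollagen were led by Adamts2, which removes the amino propeptide of fibrillar collagens. Adamts2 stood at 74.3, 61.6 and 82.6 TPM in dermis and at 0.19, 0.10 and 0.26 TPM in epidermis. Its log2 fold change was -5.96 (SE 0.20, limma adjusted p = 1.07e-05), and epidermis held 0.25% of the dermis mean. Adamts14, with the same activity, stood at 7.28, 6.18 and 6.99 TPM in dermis and at 2.95, 0.91 and 1.22 TPM in epidermis. The groups of Adamts14 did not overlap, and epidermis held 24.8% of the dermis mean (log2 fold change -1.61, SE 0.30, limma adjusted p = 0.00346). Adamts3, the third procollagen enzyme, did not exceed 0.23 TPM in dermis and was listed at 0 in all epidermis libraries.

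Among the ADAMTS proteases that cut versican, aggrecan and related proteoglycans, Adamts1 was the one most retained in epidermis. It stood at 22.7, 12.7 and 26.4 TPM in dermis and at 9.05, 4.48 and 8.35 TPM in epidermis, 35.4% of the dermis mean. The log2 fold change was -1.37 (SE 0.35, limma adjusted p = 0.0137), and the call was lost under quantile normalization (-0.87, adjusted p = 0.0595) and without wound dermis replicate 1 (adjusted p = 0.0568) or replicate 3 (adjusted p = 0.0541). Adamts9 stood at 23.5, 16.5 and 13.4 TPM in dermis and at 0.46, 0.31 and 0.45 TPM in epidermis (log2 fold change -3.71, SE 0.25, limma adjusted p = 3.32e-05). Of the Adamts9 stretches 10.8% occur in other genes, including A730049H05Rik on the opposite strand, which stood at 21.8 to 23.0 TPM in dermis and 0.13 to 0.47 TPM in epidermis, so reads in the shared part cannot be told apart. Adamts4 and Adamts5, the aggrecanases of cartilage and inflamed tissue, were both nearly absent from epidermis. Adamts4 stood at 8.19, 6.15 and 8.40 TPM in dermis and at 0.05, 0 and 0.04 TPM in epidermis. Adamts5 stood at 6.54, 5.25 and 6.63 TPM in dermis and at 0.09, 0.03 and 0.13 TPM in epidermis. Adamts15 stood at 5.29, 5.53 and 6.88 TPM in dermis and at 0.24, 0.14 and 0.05 TPM in epidermis. All 3 were called lower, with log2 fold changes of -3.05, -2.72 and -2.59. Adamts8 and Adamts20 stayed under 1 TPM in epidermis and at no more than 0.92 and 2.17 TPM in dermis, and were not tested.

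Other ADAMTS genes were also lower in epidermis. Adamts10, a partner of fibrillin microfibrils, stood at 21.9, 17.0 and 26.7 TPM in dermis and at 1.07, 0.36 and 1.96 TPM in epidermis (log2 fold change -3.47, SE 0.33, limma adjusted p = 0.000169). Adamts7, which cuts cartilage oligomeric matrix protein, stood at 9.15, 4.31 and 7.44 TPM in dermis and at 0, 0 and 0.15 TPM in epidermis (log2 fold change -2.88, SE 0.27, limma adjusted p = 0.000158). Adamts12, an enzyme with the same substrate, ranged from 2.33 to 3.11 TPM in dermis and up to 0.03 TPM in epidermis. Adamts16 ranged from 1.82 to 5.49 TPM and Adamts6 from 1.24 to 1.39 TPM in dermis, and neither exceeded 0.05 TPM in epidermis. Adamts17 ranged from 2.70 to 6.55 TPM in dermis and from 0.56 to 1.87 TPM in epidermis. These 4 were called lower, but Adamts17 lost its call with either rescaling, median-of-ratios (-1.06, adjusted p = 0.0526) or quantile (-0.59, adjusted p = 0.249), and Adamts6 (-0.37, adjusted p = 0.119) and Mmp15 (-0.28, adjusted p = 0.243) lost theirs under quantile normalization. Adamts13, the protease of von Willebrand factor, was listed at 0 in all dermis libraries and did not exceed 0.16 TPM in epidermis.

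**Figure D3:**
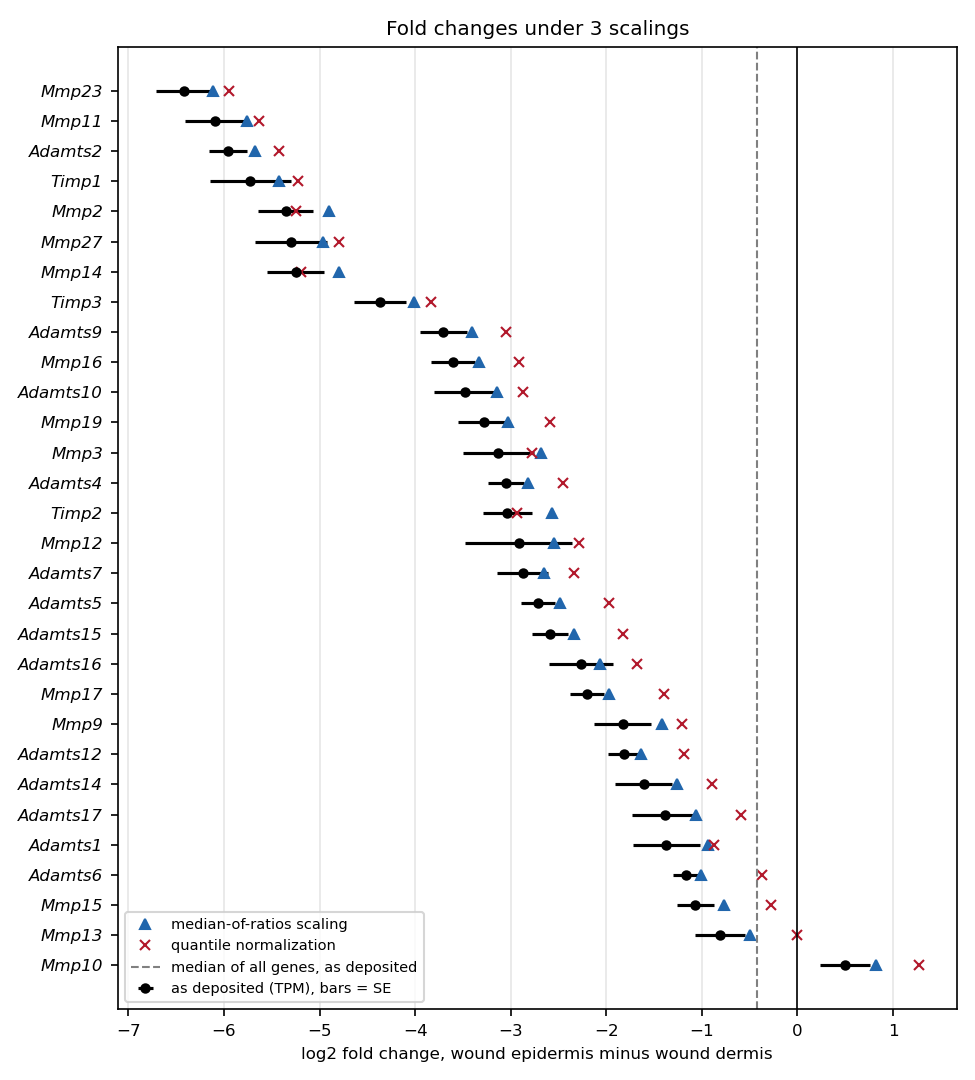
Log2 fold changes (wound epidermis minus wound dermis) of the 30 tested genes, with SE bars for TPM as deposited and other markers for 2 further scalings; the dashed line is the median of all genes at -0.42. All 29 called genes lie below 0 under the 3 scalings, Mmp13 at -0.01 under quantile normalization, and Mmp10 lies above 0.

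The scaling matters because the balance of all genes shifts with it. Of all genes called, 30.2% were higher in epidermis as deposited, against 47.2% with median-of-ratios scaling and 52.8% with quantile normalization, with medians over all genes of -0.42, -0.03 and 0.08. Among the 30 tested protease and TIMP genes, 27 were lower and 1 higher after the first rescaling, and 24 lower and 1 higher after the second. Over all 15982 genes tested, 4850 were lower after the first and 4191 after the second. The 30 genes include the 15 that passed the filter through dermis alone and those that needed dermis beside 1 or 2 epidermis libraries.

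The labelled tissues were checked against marker genes. All 18 keratinocyte markers were higher in epidermis, with summed levels of 69333 to 108351 TPM against 752 to 21360 TPM in dermis. With single libraries left out, 12 (without wound dermis replicate 1) to 18 of them passed, and none was lower. All 12 fibroblast markers were lower, at 54.5 to 167 TPM in epidermis against 44970 to 70367 TPM in dermis. So were all 8 myofibroblast and smooth muscle, 12 macrophage and 8 endothelial markers and all 5 tested mast cell markers of 6. Of these, 4 fibroblast, 6 myofibroblast and smooth muscle, 5 macrophage and 5 endothelial markers, and Mcpt4, Cma1, Cpa3 and Tpsb2, passed the filter through dermis alone. Of all genes that passed in that way, 98.4% were called lower. Over all genes tested, 39.3% were lower and 17.0% higher. Of the other lists, 1 of 2 tested neutrophil genes rose and 1 fell, 2 of 6 T cell genes fell, 1 of 7 Langerhans and dendritic cell genes rose (Epcam, which is also on the keratinocyte list) and 5 fell (2 and 2 after quantile normalization), Cd207 not being called at 1.2 (limma adjusted p = 0.0732), and 2 of 3 Schwann cell and 1 of 2 melanocyte genes fell. One of 2 tested skeletal muscle genes rose and 1 fell, and the single tested adipocyte gene, Lipe, rose while Adipoq did not exceed 0.12 TPM. Wound dermis replicate 2 held the 21360 TPM of keratinocyte markers and the 44970 TPM of fibroblast markers, the highest and lowest of the dermis libraries. It was also the lowest dermis library for 24 of the 33 protease and TIMP genes with a dermis mean of at least 1 TPM, against 31.9% of all such genes. The part that its keratinocyte transcripts, whatever their source, have in these values was not tested. Without that library, and with the tested genes held fixed, 28 of the 30 genes were lower, against 5803 of all 15982 genes. This fixed set keeps the 15 genes that passed the filter through dermis alone. With the filter reset, 15 genes were tested and 13 were lower, against 3751 of all 13823 genes.

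Markers of leukocytes, which are known to make Mmp8, Mmp9 and Mmp12, did not all move the same way. The summed macrophage markers ranged from 1441 to 2674 TPM in dermis and from 69.6 to 80.9 TPM in epidermis, with replicate 3 highest in dermis, as for Mmp12. That replicate was the highest dermis library for 17 of the 33 protease and TIMP genes with a dermis mean of at least 1 TPM. Mmp8 and Mmp9 were highest in dermis replicate 1. For neutrophils, Ly6g and Elane were listed at 0 in all libraries and Csf3r stood at 8.69, 5.49 and 11.5 TPM in dermis and 0.03 to 0.14 TPM in epidermis. The summed neutrophil markers, 19.1 to 29.9 TPM in dermis and 27.3 to 32.0 TPM in epidermis, were led by Cxcr2, which was higher in epidermis. In epidermis the sum was almost all Cxcr2, at 27.0, 31.9 and 28.8 TPM. The other 8 of the 9 markers were below 1 TPM in all 3 epidermis libraries. The part of these cells in the protease values was not tested.

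How much of each gene remained in epidermis varied widely. Among the 22 genes with a dermis mean of at least 5 TPM, the epidermis mean was 0.25% (Adamts2) to 35.4% (Adamts1) of the dermis mean, with a median of 2.21%. Over the 12 fibroblast markers this share was 0.0089% to 35.6%, with a median of 0.095%. Col1a1, Col1a2, Col3a1, Dcn, Lum, Dpt and Mfap5 were all below every one of the 22 genes. Pdgfra and Pdgfrb, at 0.50% and 0.42%, lay among the lowest of them, while Vim and Thy1, at 2.13% and 16.7%, lay among the rest. Fbln1, at 35.6%, lay just above all 22. The genes kept at over 10% were Adamts1, Adamts14 (24.8%), Mmp9 (21.9%), Timp2 (11.9%) and Mmp3 (10.3%).

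**Figure D4:**
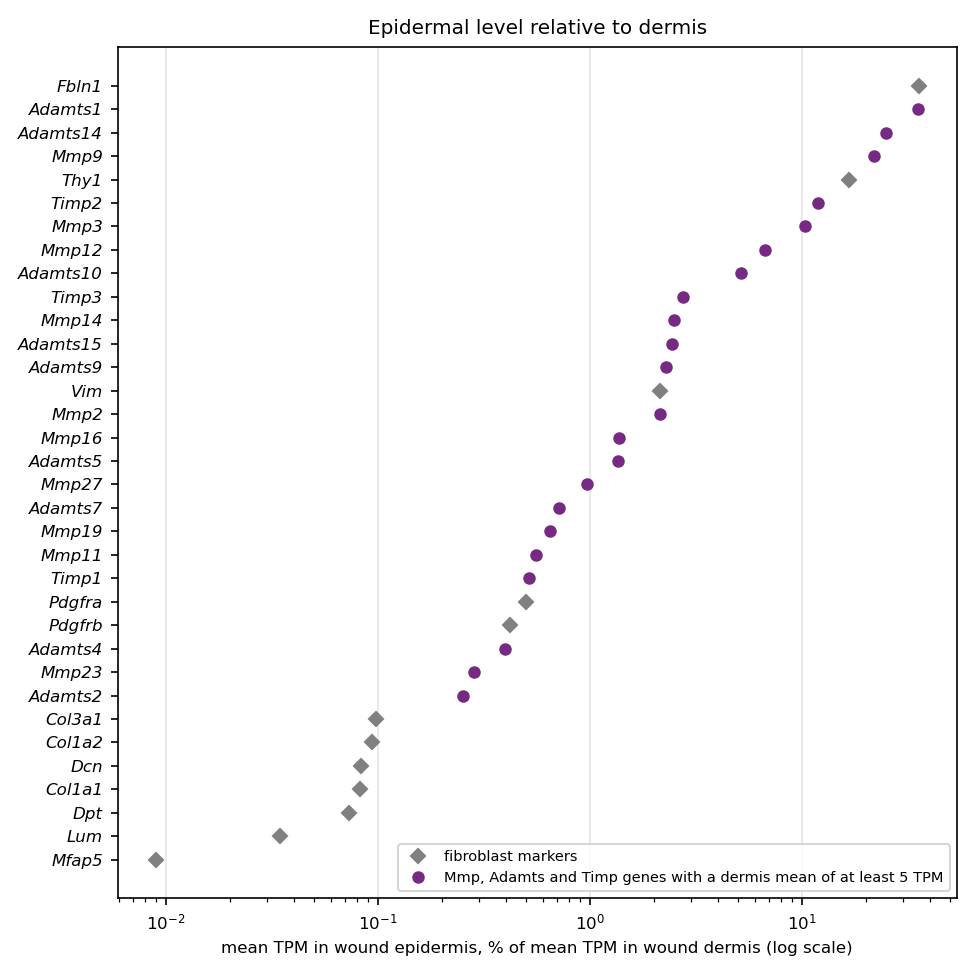
Mean TPM in wound epidermis as a percentage of the mean in wound dermis, on a log axis, for the 22 genes with a dermis mean of at least 5 TPM (circles) and the 12 fibroblast markers (diamonds). Collagen and small proteoglycan markers lie below 0.1%, and Adamts1, Adamts14 and Mmp9 lie above 20%.

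The makeup of the families differed between the layers. Summed Mmp transcripts reached 1384, 1005 and 1491 TPM in dermis and 42.0, 31.6 and 48.9 TPM in epidermis, and summed Timp transcripts 316, 261 and 458 TPM in dermis and 22.3, 34.2 and 26.8 TPM in epidermis. The ratio of the Mmp to the Timp sum was 4.38, 3.85 and 3.26 in dermis and 1.88, 0.92 and 1.82 in epidermis, so all epidermis libraries lay below all dermis libraries. These ratios are a description of transcripts and were not tested. Timp2 made up 58.6% to 69.2% of the Timp sum in dermis and 91.4% to 97.9% in epidermis. Timp1 made up 18.1% to 30.2% in dermis and 0.50% to 3.17% in epidermis. Within the Adamts sum, Adamts2 led in dermis with 37.4% to 42.1% and Adamts1 in epidermis with 52.7% to 60.8%. Mmp3 took 5.10% to 8.57% of the Mmp sum in dermis and 17.8% to 25.3% in epidermis.

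**Figure D5:**
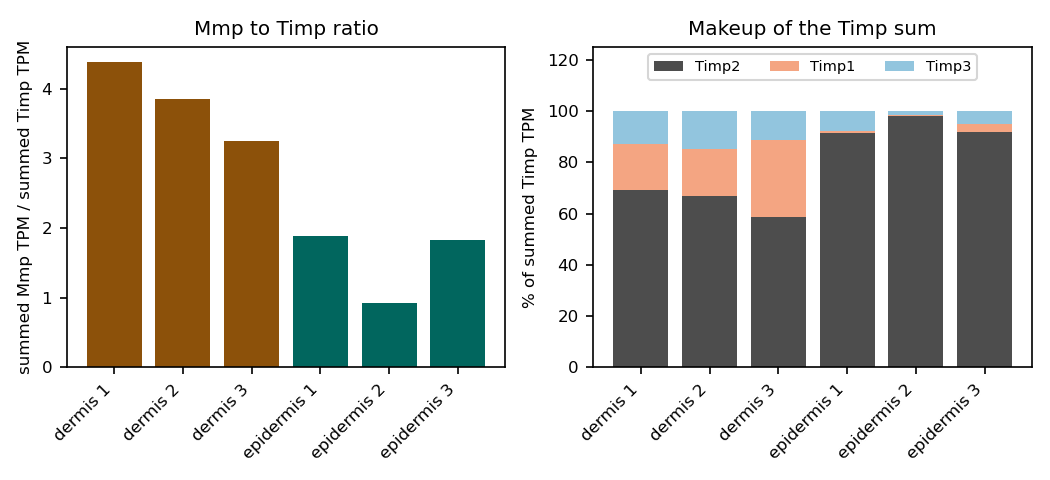
Left, the ratio of summed Mmp to summed Timp TPM in each of the 6 mouse libraries; right, the percentage of the Timp sum from Timp2, Timp1 and Timp3. The ratio is 3.26 to 4.38 in dermis and 0.92 to 1.88 in epidermis, where Timp2 makes up over 90% of the Timp sum.

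Other genes of the same protease network were counted from lists, to be read beside the 39.3% lower and 17.0% higher over all genes tested. Adam22, Adam33, Pcsk5, Reck, Tfpi2, Spock3, Ctsk, Fap, Adamtsl1 and Vcan were below 1 TPM in all 3 epidermis libraries. They passed the filter through dermis alone, as did genes of which 98.4% were called lower, so their calls give no support to the list counts. Of 8 tested plasminogen system genes of 10, 4 were lower and 1 was higher in epidermis, near those shares. Serpine2, an inhibitor of plasminogen activators, fell by 6.33. Plaur, the receptor of urokinase, fell by 4.39, and the activator Plat fell by 3.0. Serpinb2, the plasminogen activator inhibitor of keratinocytes and macrophages, stood at 13.9, 85.9 and 1.17 TPM in dermis and at 207, 353 and 148 TPM in epidermis and rose by 3.98 (limma adjusted p = 0.0248). That call was lost without wound epidermis replicate 1 (adjusted p = 0.0573) or 2 (0.0798), without wound dermis replicate 1 (0.0738) and without the filter (0.0609), and without wound dermis replicate 3 the change was 2.63. Urokinase itself, Plau, stood at 0.01 (limma adjusted p = 0.984), with overlapping groups, and its sign depended on the library left out, from -0.45 without wound dermis replicate 3 to 0.57 without wound dermis replicate 1.

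Of 10 tested ADAM genes, membrane proteases that shed cell surface proteins, 7 were lower and 0 higher, against 39.3% and 17.0% of all genes. The 7 include Adam22 and Adam33, which passed the filter through dermis alone. Adam33 fell by 5.07, Adam22, which lacks protease activity, fell by 4.96, Adam12 fell by 4.68 and Adam19 fell by 3.49. Adam17, the sheddase of tumour necrosis factor and of epidermal growth factor receptor ligands, stood at 0.42 (limma adjusted p = 0.0921), with all epidermis libraries above all dermis libraries. It was called higher after median-of-ratios scaling (0.87, adjusted p = 0.00549) and quantile normalization (0.78, adjusted p = 0.0117). Adam15 stood at 0.18 and Adam8 at -0.54, and neither passed.

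Proprotein convertases, which activate Mmp11, the membrane-type enzymes and the ADAMTS proteases, had 2 of 5 tested genes higher and 2 lower, against 17.0% and 39.3% of all genes. Furin stood at 71.2, 90.9 and 95.0 TPM in dermis and at 127, 144 and 116 TPM in epidermis (log2 fold change 0.59, limma adjusted p = 0.0418). The groups of Furin did not overlap, but its call was lost without any 1 of the 6 libraries (adjusted p = 0.0501 to 0.145) and without the filter (adjusted p = 0.0529). Pcsk6 rose by 1.51, while Pcsk5 fell by 2.90 and Mbtps1 fell by 1.52.

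Of 9 tested regulators and binding partners of metalloproteinases, 8 were lower and 0 higher, against 39.3% and 17.0% of all genes. The 8 include Reck, Tfpi2 and Spock3, which passed the filter through dermis alone. Thbs2 fell by 8.47, the procollagen enhancer Pcolce fell by 7.47, Sparc fell by 6.77 and Tfpi2, listed at 0 in all epidermis libraries, stood at 8.01 to 11.1 TPM in dermis. Reck, a membrane-anchored inhibitor of metalloproteinases, stood at 8.65, 5.25 and 9.33 TPM in dermis and at 0, 0.09 and 0.02 TPM in epidermis. Bsg, which induces metalloproteinases in neighbouring cells, did not pass at -0.35 (limma adjusted p = 0.247). Scaling decided the place of Bsg, at 0.12 (adjusted p = 0.626) after median-of-ratios scaling and at -0.73 (adjusted p = 0.0173) after quantile normalization.

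Among 16 tested cathepsins and related proteases 8 were lower and 2 higher, near the shares of all genes. Ctsk, a collagen-cutting cathepsin, fell by 6.94, Ctsz fell by 4.68, Ctss fell by 3.82 and Fap, a fibroblast surface protease, fell by 3.31. Ctso, with a smaller adjusted p than Ctss, fell by 2.845. The lysosomal Ctsa and Ctsd rose by 1.92 and 1.25. Bmp1, which removes the carboxy propeptide of procollagen, fell by 2.99, and of the astacin proteases only it and Tll1 were tested, 1 lower and 0 higher. Of 3 tested ADAMTS-like genes Adamtsl1 and Adamtsl4 were lower. Vcan, the versican substrate of the proteoglycan-cutting enzymes, was the single tested gene of its list of 8 and fell by 5.70.

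The genes too low for testing were Timp4, Mmp1b, Mmp7, Mmp8, Mmp20, Mmp21, Mmp24, Mmp25, Mmp28, Adamts3, Adamts8, Adamts13, Adamts18, Adamts19 and Adamts20. Mmp20, an enzyme of tooth enamel, was listed at 0 in all 6 libraries. Mmp28, or epilysin, which keratinocytes are known to make, stood at 0.75, 0.95 and 0.66 TPM in dermis and at 1.02, 0.63 and 0.92 TPM in epidermis. The groups of Mmp28 overlapped, and it missed the filter because a single library reached 1 TPM. Mmp7, the matrilysin of glandular epithelia, reached 0.13 TPM in 1 dermis library and was listed at 0 in the others. Adamts18 ranged from 0.44 to 4.4 TPM in dermis and from 0.16 to 0.81 TPM in epidermis, with overlap, and Mmp21 and Adamts19 did not exceed 0.16 and 0.01 TPM.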

How the data were processed

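RNA of mouse wound dermis (3 libraries) and wound epidermis (3 libraries) was copied by SMART-seq2, which does not keep strand, and sequenced as single-end reads of 86 or 43 bases, per the labels' protocols. The deposited values are TPM per gene and library, computed by the authors; Bowtie 1.0.0, RSEM 1.2.31 and the build mm10 are named per the submitters' processing notes. The gene models behind the values and the software settings are not known here. TPM carry no read numbers, so precision can be judged from the replicates alone. The rat table was not used here, because its identifiers could not be paired with symbols. Symbols, gene types and coordinates (1-based) came from GENCODE M21, which is on mm10; 49289 of 49548 identifiers had a symbol.

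The test was limma 3.58.1 (R 4.3.3; mean-variance trend, no covariates) on log2(TPM + 1), for genes that reached 1 TPM in 3 or more libraries, Benjamini-Hochberg adjusted over all of them. Fold changes include the pseudocount of 1 and so run small for genes near or below 1 TPM in either layer. With a pseudocount of 0.1 the median over the 30 tested protease and TIMP genes was -4.90, against -2.97. The fit was tested on simulated data. The genes and lists were chosen with earlier results of these data known. All tested protease and TIMP genes are named; those whose higher group averaged 10 TPM or more, or 5 TPM or more if called, are given by library. Each list is given by its counts, with up to 4 of its genes of smallest adjusted p and called genes of the opposite direction; 1 gene of the plasminogen list is not reported here, and further list genes, and some lower ones given by library, were chosen after their values were seen. Coding stretches were located by translating the longest annotated transcript of each gene and searching for the histidine or cysteine spacing of the site. Alternatives were other filters, pseudocount, scalings, no trend, a replicate block and leaving out each library.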

Additional observations from a re-analysis of the deposited data

How the results depend on the processing

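Apart from Mmp10, the 324 fold changes of the tested protease and TIMP genes under the other settings tried (filters, pseudocount, scalings, trend, block and single libraries left out) were all below 0, and 24 of the 29 lower genes kept their call in every such setting in which they were tested. Exceptions were Mmp13, Adamts1, Adamts17, Mmp15 and Adamts6. These counts include the 15 genes that passed the filter through dermis alone. Their values below 0 were largely set by the filter and give no support. Genes that needed dermis beside 1 or 2 epidermis libraries to pass are counted as well. Among the 7 lower genes at 1 TPM in all 3 epidermis libraries, Adamts1 alone lost its call. The number of higher genes among the protease and TIMP genes was 1 (Mmp10) under median-of-ratios scaling and 1 under quantile normalization, against 0. Leaving out single libraries, with the filter reset, gave 12 to 29 lower genes, against 29, and 0 higher; the fewest came without a dermis library (12, 13 and 12 without replicates 1, 2 and 3), when 15 genes were tested, since those absent from epidermis then miss the filter. With the tested genes held fixed, a choice made after seeing the data, 27 to 29 were lower, against 5291 to 6376 of all 15982 genes. Over all genes, 4342 and 4694 were higher under the 2 rescalings, against 2721, and 3256 to 6406 were lower and 1943 to 2675 higher with a library left out, against 6275 and 2721. Replicate numbers were tested as pairs: across genes, departures from the group mean correlated at -0.13, 0.09 and 0.19 in libraries of the same number, so the numbers were not treated as pairs; whether libraries of a number share an animal is not known, and 1 of the 3 epidermis libraries correlated best with the dermis library of its own number. With the replicate block, 29 of these genes were lower and 0 higher, and over all genes 5940 were lower and 2464 higher; Furin had an adjusted p of 0.0852. List genes were followed through the same settings after their values were seen: Serpinb2 and Furin lost their calls as given beside them, Adam17 gained one with both rescalings and Bsg stood at 0.12 and -0.73 there. Plau, not called, changed sign with single libraries left out, from -0.45 to 0.57.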
